A study of Rattus norvegicus with 10 samples.

Results

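The Slc25 genes encode the mitochondrial carrier family. Its members were taken as all probe sets of the deposited table that the platform annotation gives 1 gene symbol starting with Slc25a, which gave 58 of 31042 probe sets and 40 of 14217 genes. The values are MAS5 signals, a linear measure of hybridisation intensity, from liver of male Wistar rats, an outbred laboratory strain, on 10 Affymetrix arrays, 2 for each of 5 diets. For 12 weeks 1 group was given standard chow, while in the other 4 groups fat supplied 42% of the energy, as lard, as olive oil, as coconut fat or as fish oil (named cod liver oil in the series design). All rats were fasted overnight and killed with CO2 before a piece of a liver lobe was clamp frozen, so every group, chow included, shows the fasted state. The series title asks whether the effects of a high-fat diet depend on the kind of fat, and no fat share is given for chow. Whether an array holds RNA of 1 rat or of several is not stated in the labels, so the p-values measure only how far these samples spread, and the small number of arrays limits the precision.

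Carriers of this family sit in the inner mitochondrial membrane and exchange metabolites, nucleotides, phosphate and cofactors between the cytosol and the matrix. In liver they feed fatty acids to oxidation as acylcarnitines, export citrate for fat synthesis, and carry the aspartate, ornithine and citrulline on which the urea cycle and the malate-aspartate shuttle depend. Not every member fits the name: the product of Slc25a17 sits in peroxisomes, and that of Slc25a46 in the outer mitochondrial membrane.

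Of the 58 probe sets, 48 from 34 genes were bright enough to be tested, meaning that their mean lay above the lowest 40% of all probe sets. The trimmed mean signal (2%) was 100 on all 10 arrays, and array medians ran from 28.7 to 31.9 except on lard array 2, at 36.8. The 8 hepatocyte markers found on the array were above background in every diet, with summed signals of 56964 to 68710. The summed signals of macrophage and lymphocyte markers differed between diets. Among the macrophage markers, Cd14 and Cd74 differed most in mean signal, with Cd14 highest with fish oil and Cd74 with chow. The summed signal of 7 macrophage markers (of 9 listed, none dim in all diets) was 4145 to 4514 with chow and 2768 to 3829 in the high-fat groups. That of 5 lymphocyte markers (of 6 listed, Cd3d and Cd79b dim in all diets) was 92.8 to 123 with fish oil and 138 to 195 elsewhere. The sum of 4 erythroid markers (of 8 listed) was 4300 to 5797 with fish oil and 5501 to 10184 elsewhere, with overlap. By limma (described below), 0 of 4 lymphocyte and 0 of 4 erythroid probe sets passed in any comparison. The same held for the cholangiocyte, endothelial, stellate, adipocyte and skeletal muscle lists, and 0% to 0.424% of all probe sets tested passed. At an unadjusted p under 0.05, 2 lymphocyte probe sets were lower with fish oil than with chow (4.09% of all). Against the mean of lard, olive oil and coconut fat, 1 lymphocyte and 2 erythroid probe sets were lower with fish oil (6.86% of all). Among macrophage markers, Cd74 was called lower with fish oil than with chow (log2 fold change -1.20, limma adjusted p = 0.0450, 0.156% of all called). In whole liver, fewer cells of a type and less RNA per cell cannot be told apart. The part of these cells in the results below was not tested.

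Few carriers passed limma's test: it called 1 probe set in the 8 comparisons. It belongs to Slc25a15, the ornithine and citrulline carrier, and was higher under fish oil than under lard, olive oil and coconut fat. Fold changes are given on the log2(signal + 3.1) scale, which understates the change of dim genes, and a call means a Benjamini-Hochberg adjusted p under 0.05 over all 18625 probe sets tested. Under fish oil against the mean of lard, olive oil and coconut fat, 1 of 48 probe sets was called (0.424% of all probe sets tested), and 12 from 10 genes had an unadjusted p under 0.05, 6 higher and 6 lower (11.8% of all tested, 4.91% higher and 6.86% lower). In the plot of fold changes, this probe set stands at the upper end.

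**Figure D1:**
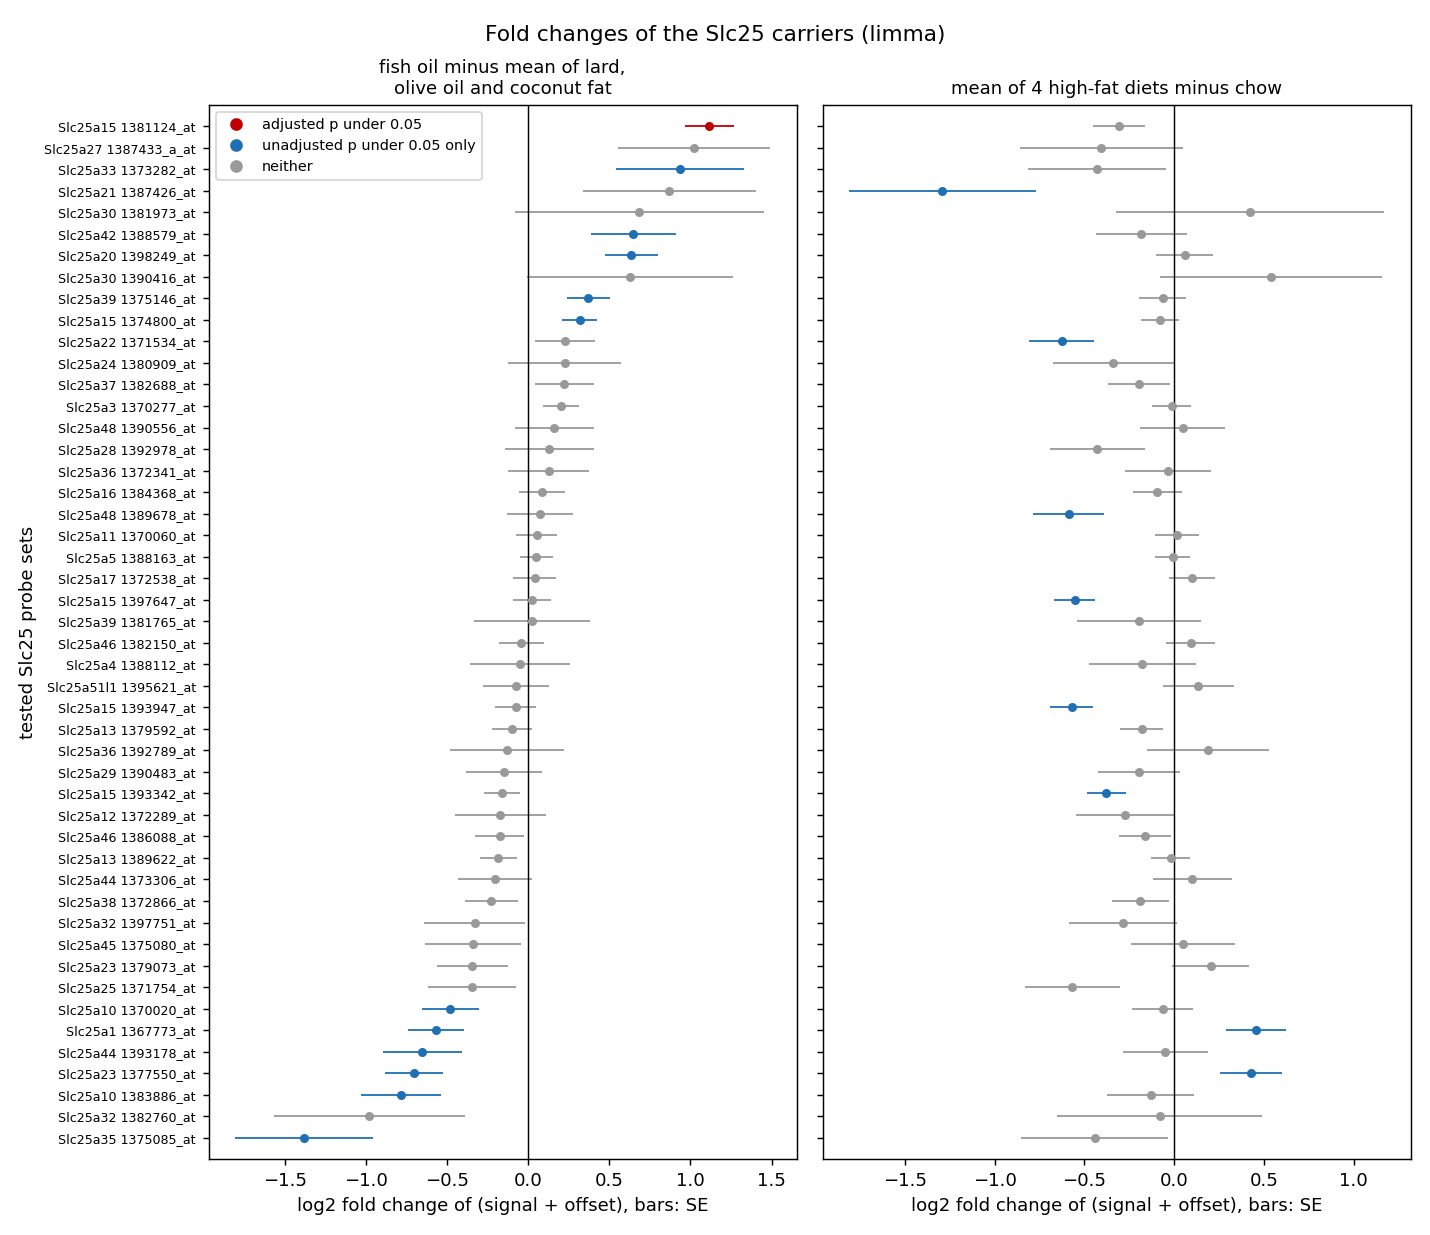
Log2 fold changes of the 48 tested Slc25 probe sets (points) with their standard errors (bars), for fish oil against the mean of lard, olive oil and coconut fat (left) and for the mean of the 4 high-fat diets against chow (right), both ordered by the left panel. The Slc25a15 probe set 1381124_at, at 1.12 on the left, is the only red point, and 6 points on each side of 0 at left have an unadjusted p under 0.05.

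Against chow, limma called 0 of 48 carrier probe sets in any comparison. For fish oil (0.156% of all probe sets called), 8 had an unadjusted p under 0.05, 2 higher and 6 lower, where 7.63% of all probe sets did (3.54% higher, 4.09% lower). For lard (0.0161% called), there were 6, all lower, against 7.99% of all (4.68% higher, 3.31% lower). For olive oil (0.0268% called), there were 10, 2 higher and 8 lower, against 8.38% of all (4.35% higher, 4.03% lower). For coconut fat (0% called), there were 5, 2 higher and 3 lower, against 5.43% of all (2.54% higher, 2.89% lower). For the mean of the 4 high-fat diets (0.0376% called), there were 8, 2 higher and 6 lower, against 6.66% of all (3.84% higher, 2.82% lower). These comparisons share the chow arrays. Several of the probe sets belong to 1 gene, Slc25a15, so the counts are not counts of genes.

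Among the remaining comparisons, limma called 0 carrier probe sets for coconut fat against the mean of lard and olive oil (0% of all called) and 3 had an unadjusted p under 0.05, 2 higher and 1 lower (6.71% of all, 2.44% higher and 4.27% lower). For olive oil against lard, 0 were called (0% of all) and 1 had an unadjusted p under 0.05, lower (6.23% of all, 2.54% higher and 3.69% lower). The F-test for any difference between the 5 diets called 0 (0.14% of all), and 13 had an unadjusted p under 0.05 (9.4% of all).

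With each gene represented by its brightest tested probe set, the median log2 fold change of the 34 carriers against chow was -0.20 with lard, -0.14 with olive oil, -0.05 with fish oil and -0.04 with coconut fat. The medians of all 10470 genes taken the same way were 0.01, 0.00, -0.01 and -0.01. Of the 34 carriers, 10 were above 0 with lard, 11 with olive oil, 14 with fish oil and 17 with coconut fat. By mean signal, chow was the highest diet for 11 carriers and the lowest for 4, and fish oil was the highest for 9 and the lowest for 11. The SD between replicates of an array's own median over the carriers was 0.0548, which is not the spread of these medians of fold changes. As single arrays were left out, the lard median ran from -0.20 to -0.060, the latter without lard array 1. The fish oil median ran from -0.19 to -0.053.

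**Figure D2:**
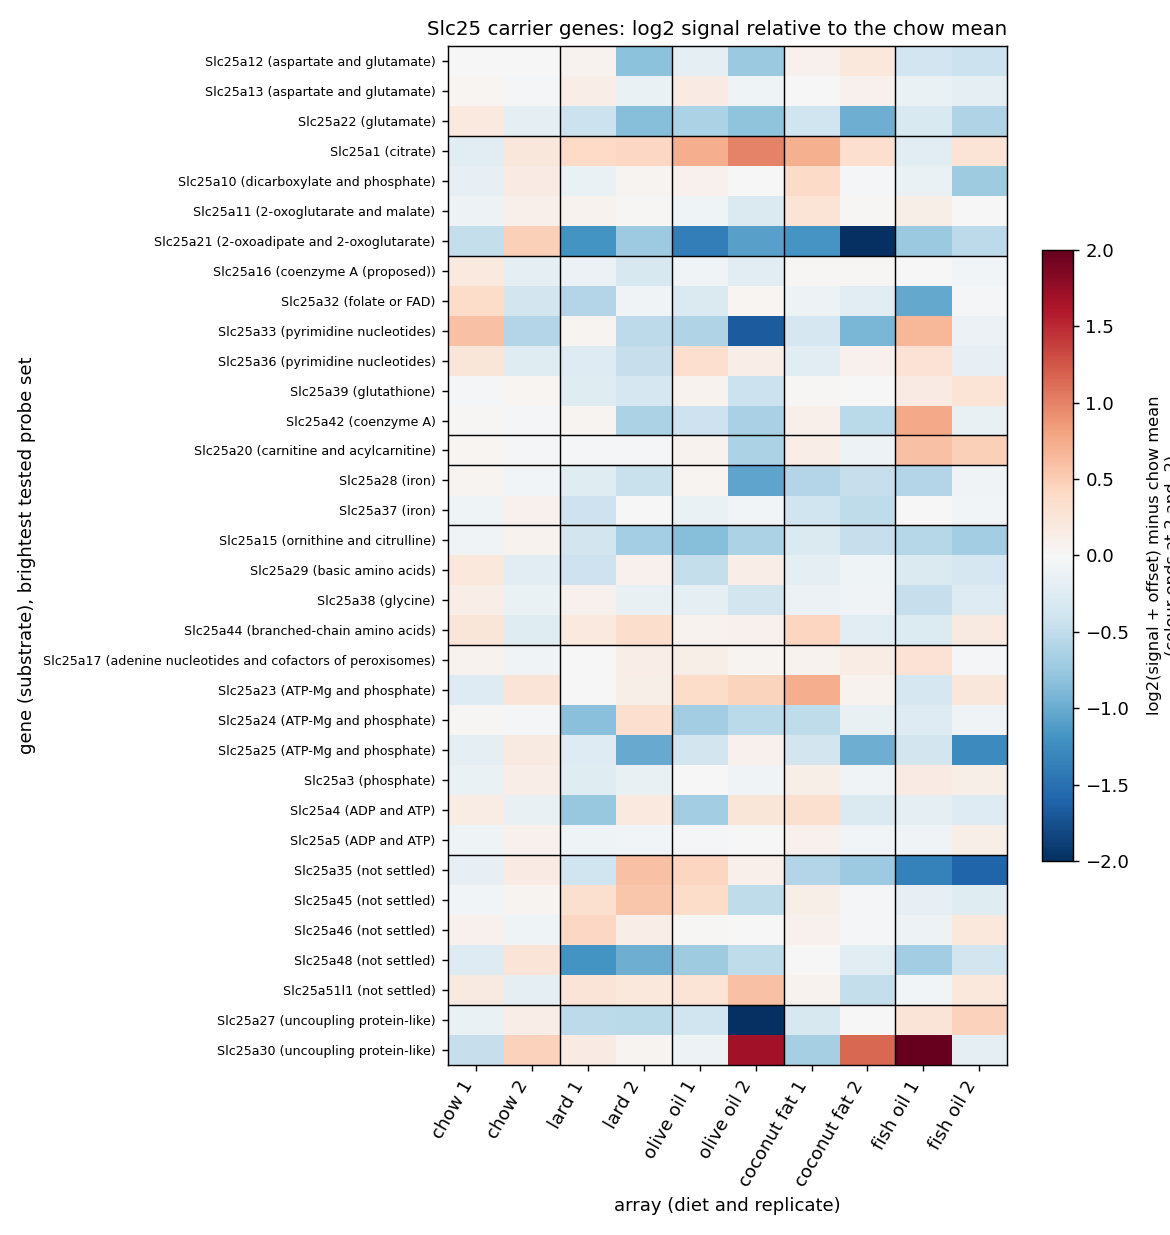
Log2(signal + offset) of the 34 tested carrier genes (rows, brightest probe set, with the substrate named) on each of the 10 arrays (columns), minus the mean of the chow arrays, with colours ending at 2 and -2. Most cells are pale, Slc25a20 is red on both fish oil arrays, and Slc25a30 is dark red on 1 array of fish oil and 1 of olive oil.

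Slc25a20, the carnitine and acylcarnitine carrier, exchanges the fatty acyl groups bound for oxidation against free carnitine, between the carnitine palmitoyltransferases Cpt1a and Cpt1b of the outer membrane and Cpt2 of the inner membrane. The Slc25a20 signals were 752.5 and 714 with chow, 715 and 715 with lard, 765.5 and 474 with olive oil, 804 and 681.5 with coconut fat, and 1102 and 1023 with fish oil. Both fish oil arrays lay above the other 8 arrays, and chow, lard and coconut fat overlapped. The log2 fold change was 0.63 (SE 0.16, 1.55-fold) for fish oil against the other 3 high-fat diets, with a limma adjusted p of 0.150, and 0.53 (SE 0.20) against chow, with a limma adjusted p of 0.546. It passed only without olive oil array 1 (limma adjusted p = 0.0321). Between the other diets, olive oil array 2 at 474 stood below its own replicate at 765.5, and no order can be read among chow, lard, olive oil and coconut fat.

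The enzymes around the carrier were counted from a list of 7 genes with 10 tested probe sets. For fish oil against the other 3 high-fat diets 1 probe set was called (0.424% of all tested). At an unadjusted p under 0.05 there were 6, all higher (11.8% of all tested, 4.91% higher). Of the 7 genes, 6 were above 0, with a median of 0.56. Against chow, limma called 0 with fish oil (0.156% of all). There 4 probe sets had an unadjusted p under 0.05, all higher (7.63% of all, 3.54% higher), and the median was 0.50. The called gene was Cpt2, which turns acylcarnitines back into acyl-CoA in the matrix. Cpt2 signals were 914 and 699 with chow, 651 and 626 with lard, 487 and 462 with olive oil, 711 and 711 with coconut fat, and 1039.8 and 982 with fish oil. Both fish oil arrays lay above the other 8, and Cpt2 rose by 0.75 on the log2 scale (SE 0.12, limma adjusted p = 0.0311). Cpt1a was at 0.16 on that scale (limma adjusted p = 0.833) and Crat, the carnitine acetyltransferase, 0.84 (limma adjusted p = 0.306) in that comparison. In the other comparisons of diets, limma called 0 of the 10 probe sets (0% to 0.0376% of all). There 0 to 2 had an unadjusted p under 0.05 (5.43% to 8.38% of all).

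Across the 10 arrays the log2 signals of Slc25a20 and Cpt2 correlated at Pearson r = 0.799 (permutation p adjusted over 26 carrier-partner relations 0.0309) and Spearman rho = 0.638 (adjusted permutation p = 0.148). Slc25a20 and Crat gave r = 0.793 (adjusted permutation p = 0.0305) and rho = 0.721 (adjusted permutation p = 0.115), and Slc25a20 and Cpt1b gave r = 0.763 (adjusted permutation p = 0.0457) and rho = 0.733 (adjusted permutation p = 0.115). Without the 2 arrays farthest from the median of Slc25a20, r was lower, at 0.538 for Cpt2, 0.448 for Crat and 0.517 for Cpt1b. Leaving those arrays out also narrows the range of Slc25a20, which can by itself lower r. How far the relations rest on those arrays therefore cannot be told. Within diets, over deviations from the diet means, r was 0.300 for Cpt2, 0.694 for Crat and 0.568 for Cpt1b, given as a description with no p. Cpt1b signals were low, at 35.7 to 80.1 over the arrays, against 1970.1 to 3909.4 for Cpt1a. For Cpt1a, r was 0.372 with all arrays. The permutations, here and below, shuffled all 10 arrays freely and took no account of diet. Their p therefore treats the 2 arrays of a diet as independent, and differences between diets shared by both genes count toward it.

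The 250 bases before the annotated start of Slc25a20 are shown because both fish oil arrays stood apart for this carrier, taken from RefSeq on build GRCr8 at chr8:118243323-118243572, plus strand, with matches to GGGCGG on either strand in capitals.
Slc25a20: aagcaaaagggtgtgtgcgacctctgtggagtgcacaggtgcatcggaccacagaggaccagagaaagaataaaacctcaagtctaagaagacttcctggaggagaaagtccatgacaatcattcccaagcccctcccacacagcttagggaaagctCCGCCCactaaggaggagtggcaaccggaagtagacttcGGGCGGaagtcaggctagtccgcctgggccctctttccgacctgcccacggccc

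GGGCGG, the core of the GC box to which Sp1 binds, occurred 2 times, 93 and 54 bases before the start, and in 30.5% of all 33469 promoter windows of the table. The half-site of nuclear receptors, AGGTCA, and its direct repeat with any 1 base between the copies, the element of PPAR-alpha, were searched on both strands and did not occur in this window. They occurred in 14.1% and 0.0508% of all windows. Among the 35 windows of 34 carrier genes, AGGTCA occurred in 5 and the direct repeat in 0. Only exact matches were searched, and the exact repeat is rare in all windows, so its absence here says little. A window of this length says nothing of elements elsewhere.

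Slc25a1, the citrate carrier, exports matrix citrate, from which Acly makes cytosolic acetyl-CoA for Acaca and Fasn, the enzymes of fatty acid synthesis. Its signals were 439.9 and 598 with chow, 680.2 and 685 with lard, 855 and 1021.5 with olive oil, 839.7 and 646 with coconut fat, and 443 and 617 with fish oil. The 4 arrays of chow and fish oil lay between 440 and 617, and the 6 arrays of the other diets lay above them, with olive oil highest. The log2 fold change against chow was 0.86 with olive oil (SE 0.21, limma adjusted p = 0.277), 0.52 with coconut fat, 0.41 with lard and 0.03 with fish oil. Fish oil against the other 3 high-fat diets gave -0.57 (SE 0.17, limma adjusted p = 0.211), and olive oil against lard gave 0.45 (SE 0.21, limma adjusted p = 0.803). None of these passed.

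The enzymes that make or use citrate were a list of 7 genes on the array with 12 tested probe sets. Limma called 0 of them in all 8 comparisons, where 0% to 0.424% of all probe sets were called. With olive oil against chow, 7 had an unadjusted p under 0.05, all higher (8.38% of all, 4.35% higher). There 6 of 7 genes were above 0 and the median was 1.61. With fish oil against the other 3 high-fat diets, 5 were lower and 1 higher at an unadjusted p under 0.05 (6.86% and 4.91% of all). Fasn had the largest fold change there, -2.41 (limma adjusted p = 0.348), with signals of 106 and 1097 with chow, 823 and 521 with lard, 1386 and 3788 with olive oil, 1842 and 579.6 with coconut fat, and 59.6 and 753 with fish oil. Replicates of chow, olive oil, coconut fat and fish oil stood far apart for this gene. Acly signals were 505 and 1388 with chow, 1249 and 1346 with lard, 1638 and 4488 with olive oil, 1843 and 653 with coconut fat, and 327 and 1207 with fish oil.

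The log2 signals of Slc25a1 correlated with 3 of the 7 enzymes across arrays, Acaca, Fasn and Acly, as shown in the plots of carriers against enzymes. Across 10 arrays the log2 signals of Slc25a1 and Acaca gave Pearson r = 0.943 and Spearman rho = 0.770, those of Slc25a1 and Fasn 0.933 and 0.770, and those of Slc25a1 and Acly 0.916 and 0.842. The permutation p for each Pearson r, adjusted over 26 relations, was 0.00217, and for Spearman rho it was 0.112, 0.112 and 0.1004. Without the 2 arrays farthest from the median of Slc25a1, r was 0.874, 0.875 and 0.849. Within diets, over deviations from the diet means, r was 0.950, 0.971 and 0.986. Each diet gives 1 independent difference there, so these values are given as a description with no p. The other 4 enzymes did not pass: r with Slc25a1 was 0.635 for Me1 (adjusted permutation p = 0.116; 0.043 without the 2 farthest arrays), 0.412 for Idh1 (adjusted permutation p = 0.385), 0.313 for Cs (adjusted permutation p = 0.530) and -0.528 for Aco1 (adjusted permutation p = 0.252), and their rho values were 0.624, 0.297, 0.200 and -0.345 (adjusted permutation p = 0.156, 0.578, 0.691 and 0.534). Of the 26 relations, 7 passed by Pearson and 0 by Spearman, by permutations that took no account of diet.

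The windows of Slc25a1 and Acly are shown because their signals moved together; they are the 250 bases before the start on build GRCr8, at chr11:96559804-96560053 on the plus strand and at chr10:85963632-85963881 on the minus strand, printed in the direction of the gene, with matches to CCAAT and GGGCGG on either strand in capitals. The table lists no window for Fasn.
Slc25a1: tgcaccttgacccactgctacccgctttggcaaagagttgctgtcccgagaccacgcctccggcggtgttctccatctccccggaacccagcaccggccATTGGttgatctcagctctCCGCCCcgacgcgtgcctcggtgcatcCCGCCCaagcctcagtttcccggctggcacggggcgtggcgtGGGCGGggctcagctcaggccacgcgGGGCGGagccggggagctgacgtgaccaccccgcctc
Acly: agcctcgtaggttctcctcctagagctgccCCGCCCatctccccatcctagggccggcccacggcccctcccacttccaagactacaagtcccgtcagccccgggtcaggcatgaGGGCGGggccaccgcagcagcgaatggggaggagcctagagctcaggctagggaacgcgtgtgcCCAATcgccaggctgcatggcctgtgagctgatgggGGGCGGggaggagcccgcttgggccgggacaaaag

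CCAAT, the box bound by NF-Y, occurred 1 time in each, 151 bases before the start of Slc25a1 and 71 bases before that of Acly, and in 34% of all windows. GGGCGG occurred 4 times before Slc25a1 and 3 times before Acly. TCACNCCAC, a form of the sterol regulatory element, occurred in neither, and in 0.974% of all windows. Over the carrier windows, CCAAT was in 19 of 35, GGGCGG in 21 and TCACNCCAC in 0. No match of CCAAT overlapped one of GGGCGG here, and a match is a description of the sequence only.

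The other carriers of dicarboxylates were Slc25a10 (dicarboxylate against phosphate), Slc25a11 (2-oxoglutarate against malate) and Slc25a21 (2-oxoadipate and 2-oxoglutarate). Slc25a21 signals were 41.4 and 82.7 with chow, 23.8 and 34.2 with lard, 20.6 and 25.9 with olive oil, 24.2 and 2.5 with coconut fat, and 33.7 and 39.8 with fish oil. Both chow arrays lay above the 8 high-fat arrays, and coconut fat array 2 was far below the rest. The log2 fold change of coconut fat against chow was -2.32 (SE 0.66, limma adjusted p = 0.725), and it ran from -3.46 to -1.18 as single arrays were left out. Coconut fat against the mean of lard and olive oil gave -1.22 (limma adjusted p = 0.755). For fish oil against the other 3 high-fat diets, Slc25a10 had log2 fold changes of -0.48 and -0.79 on its 2 probe sets. Their limma adjusted p was 0.305 and 0.235, with an unadjusted p under 0.05 for both. Slc25a11 had 0.05 in that comparison.

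Slc25a15 exchanges cytosolic ornithine against citrulline made in the matrix, which links the mitochondrial and cytosolic steps of the urea cycle. It has 6 probe sets, of which 5 were tested, and these did not share a pattern. The called probe set, 1381124_at, had signals of 657 and 631.5 with chow, 394 and 384 with lard, 382 and 451 with olive oil, 574 and 414 with coconut fat, and 1043 and 834 with fish oil. Both fish oil arrays lay above the other 8, and the chow arrays lay above the 6 arrays of lard, olive oil and coconut fat. The probe set rose by 1.12 on the log2 scale with fish oil against those 3 diets (SE 0.15, 2.17-fold, limma adjusted p = 0.0117). Against chow it was 0.53 (limma adjusted p = 0.494). Without fish oil array 1 the difference was 0.96 and did not pass (limma adjusted p = 0.0978), and without an intensity trend in the variance it did not pass either (limma adjusted p = 0.130).

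The brightest probe set, 1393947_at, had signals of 1538 and 1683 with chow, 1240.1 and 1002 with lard, 887 and 1036 with olive oil, 1310.4 and 1169 with coconut fat, and 1085 and 995.5 with fish oil. Here the chow arrays lay above all 8 high-fat arrays, and fish oil lay between olive oil and lard in the mean. The log2 fold change of fish oil against the other 3 high-fat diets was -0.08 (SE 0.12, limma adjusted p = 0.875), opposite in sign to that of 1381124_at. Against chow it was -0.75 with olive oil (limma adjusted p = 0.153), -0.63 with fish oil (0.220), -0.53 with lard (0.462) and -0.38 with coconut fat (0.879). For the mean of the 4 high-fat diets it was -0.57 (SE 0.12, limma adjusted p = 0.200).

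Probe sets 1397647_at and 1393342_at were also highest with chow and second with coconut fat in their means, and the order of the other 3 diets differed between the 3 probe sets. The signals of 1397647_at were 1425 and 1424.5 with chow, 1053 and 864.5 with lard, 810.4 and 830.0 with olive oil, 1249 and 1059 with coconut fat, and 1034 and 932 with fish oil. Those of 1393342_at were 1321 and 1273 with chow, 1055 and 892 with lard, 939 and 1007 with olive oil, 1151 and 1143 with coconut fat, and 877 and 959 with fish oil. For both, the chow arrays lay above all 8 high-fat arrays, and the log2 fold changes of the mean of the high-fat diets were -0.55 (limma adjusted p = 0.197) and -0.38 (limma adjusted p = 0.421). For fish oil against the other 3 high-fat diets they were 0.02, which turned to -0.03 under quantile normalization, and -0.16.

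The fifth tested probe set, 1374800_at, had signals of 1049 and 966 with chow, 914.5 and 797 with lard, 876 and 845 with olive oil, 1051 and 953 with coconut fat, and 1159 and 1091 with fish oil. Fish oil was highest on both arrays and chow overlapped coconut fat, with 0.32 for fish oil against the other 3 high-fat diets (SE 0.11, limma adjusted p = 0.283). The untested probe set, 1381440_at, was dim in all diets, at 2.7 to 12.7. Dim means that both arrays of a diet did not exceed 12.8, the brightest value of the trp control probe sets, a bacterial sequence. So 3 of 5 tested probe sets were highest with chow and 2 were highest with fish oil, and which stretch of the transcript each reads was not used here. The macrophage marker sum was also highest with chow. Cd74 and Clec4f had their highest mean signal there, whereas Cd14 was highest with fish oil. Cd68, Cd163, Csf1r and C1qa had their highest mean with lard, olive oil or coconut fat. Cd14, a receptor for bacterial lipopolysaccharide, was at 1100.3 and 1044.6 with chow, 422 and 579 with lard, 237 and 428 with olive oil, 356 and 321 with coconut fat, and 1187 and 1285 with fish oil. Fish oil was highest and chow next, as for the called Slc25a15 probe set, and Cd14 rose by 1.71 for fish oil against the other 3 high-fat diets (limma adjusted p = 0.00494). The other 6 macrophage markers had values of -0.65 to -0.21 there, and limma called 0 of them (0.424% of all). At an unadjusted p under 0.05, 4 of them were lower (6.86% of all). The lymphocyte marker sum was lowest with fish oil. The part of these cells in the Slc25a15 values was not tested.

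**Figure D3:**
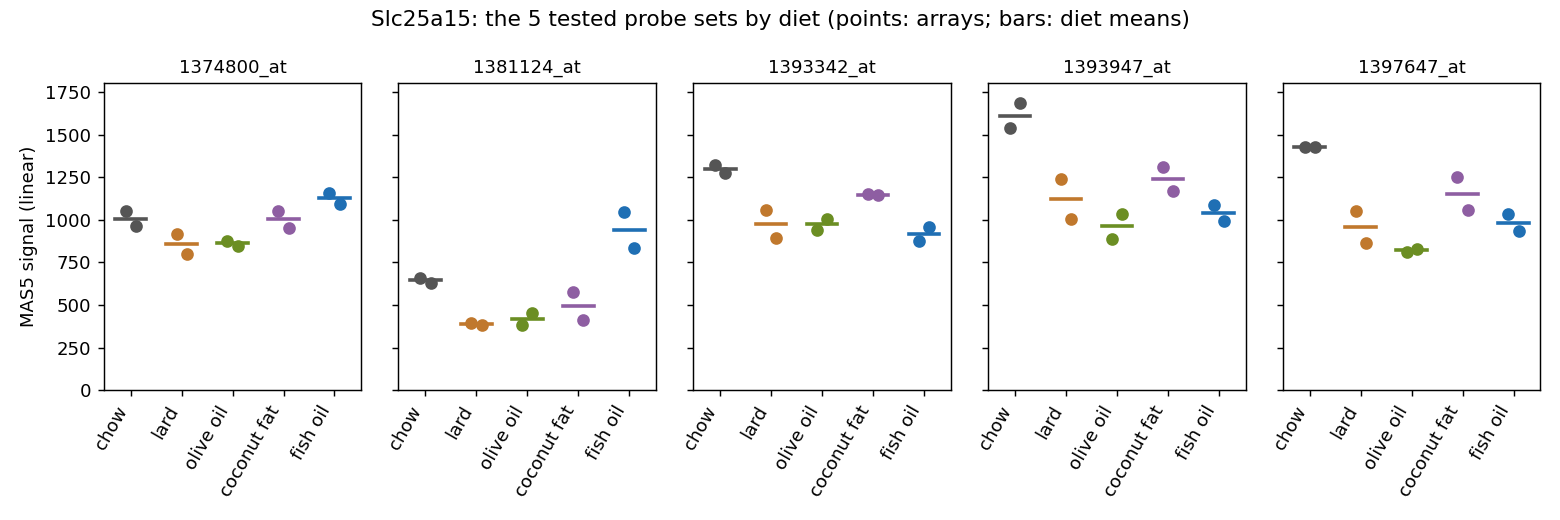
MAS5 signal (linear axis) of the 5 tested Slc25a15 probe sets by diet, with points for the 2 arrays of a diet and bars for the diet mean. Probe set 1381124_at has its highest points with fish oil (1043 and 834), while 1393342_at, 1393947_at and 1397647_at have theirs with chow.

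Of the urea cycle enzymes, 6 genes with 8 probe sets were tested and limma called 0 in all 8 comparisons (0% to 0.424% of all). With fish oil against chow, 1 probe set was higher and 4 were lower at an unadjusted p under 0.05 (3.54% and 4.09% of all). With the mean of the high-fat diets 4 were lower (2.82% of all). The argininosuccinate lyase Asl had the largest fold change for fish oil against chow, -0.94, and its signal was 1567 ± 449 (SD, n = 2) with chow and 820.4 ± 271 with fish oil. Slc25a15 (1393947_at) and Asl gave Pearson r = 0.761 over 10 arrays (adjusted permutation p = 0.0456) and Spearman rho = 0.685 (adjusted permutation p = 0.115). Without the 2 farthest arrays r was 0.378, and leaving them out also narrows the range of Slc25a15, which can by itself lower r. Within diets, over deviations from the diet means, r was 0.194.

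The other amino acid carriers were Slc25a29 (basic amino acids), Slc25a38 (glycine, for haem synthesis) and Slc25a44 (branched-chain amino acids). With fish oil against the other 3 high-fat diets, all were below 0 by their brightest probe set, at -0.15, -0.23 and -0.20, and the second Slc25a44 probe set was at -0.65 (limma adjusted p = 0.319).

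The aspartate and glutamate carriers deliver aspartate from the matrix for the malate-aspartate shuttle and the urea cycle. Slc25a13 (citrin, the form of liver) had signals on its brightest probe set of 2064 and 1954 with chow, 2191 and 1837 with lard, 2250.2 and 1888 with olive oil, 2024 and 2125.5 with coconut fat, and 1826 and 1774 with fish oil. The fish oil arrays were the lowest, by less than the gap between replicates of lard or olive oil, and fish oil against the other 3 high-fat diets gave -0.19 (SE 0.11, limma adjusted p = 0.567). The second probe set, 1379592_at, gave -0.10. Slc25a12 (aralar, the form of muscle and brain) was dimmer, at 53.8 and 53.3 with chow, 56.5 and 29.0 with lard, 46.2 and 30.8 with olive oil, 57.2 and 62.8 with coconut fat, and 40.5 and 39.0 with fish oil. The coconut fat arrays were the highest and the lard arrays spanned those of chow and fish oil, and fish oil against the other 3 high-fat diets gave -0.17 (SE 0.28, limma adjusted p = 0.878).

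Slc25a22 imports glutamate with a proton. Its signals were 879.5 and 673 with chow, 573 and 423 with lard, 493 and 438 with olive oil, 585 and 391 with coconut fat, and 622 and 504 with fish oil. Both chow arrays lay above the 8 high-fat arrays, which overlapped one another. The log2 fold changes against chow were -0.72 with olive oil, -0.68 with coconut fat, -0.64 with lard and -0.46 with fish oil, and -0.63 for their mean (SE 0.18, limma adjusted p = 0.455). Without single arrays the mean difference ran from -0.82 to -0.43. The untested glutamate carrier Slc25a18 was dim in all diets, at 1.7 to 6.9.

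The enzymes of the malate-aspartate shuttle were a list of 6 genes with 9 probe sets. Of these, 1 was called lower with lard (0.0161% of all called) and with the mean of the 4 high-fat diets (0.0376%). It was Got1, the cytosolic aspartate aminotransferase that uses the exported aspartate. Got1 signals were 1429 and 1288 with chow, 375 and 367 with lard, 399 and 566 with olive oil, 572 and 350.0 with coconut fat, and 572.5 and 567 with fish oil. The chow arrays lay above the other 8 without overlap, and Got1 fell by 1.55 on the log2 scale with the mean of the high-fat diets (SE 0.18, limma adjusted p = 0.0192) and by 1.86 with lard (limma adjusted p = 0.0464). Its mitochondrial partner Got2 was at 0.09 for the mean of the high-fat diets against chow (SE 0.10, limma adjusted p = 0.957) and at -0.13 for lard (limma adjusted p = 0.854). Slc25a13 and Got1 gave Pearson r = -0.168 (adjusted permutation p = 0.713) and Spearman rho = -0.273 (adjusted permutation p = 0.578) over 10 arrays, and no enzyme of the list passed with Slc25a13.

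Phosphate and adenine nucleotides reach the ATP synthase through Slc25a3, the phosphate carrier, and Slc25a4 and Slc25a5, the ADP and ATP carriers. Slc25a3 signals were 1953 and 2358 with chow, 1823 and 1947 with lard, 2159 and 2051.5 with olive oil, 2331 and 2034 with coconut fat, and 2406 and 2316.5 with fish oil. The ranges of fish oil, chow and coconut fat overlapped, and fish oil against the other 3 high-fat diets gave 0.20 (SE 0.11, limma adjusted p = 0.520). Slc25a5, the main form in liver, was at 3474 and 3872 with chow, 3471 and 3525 with lard, 3618.5 and 3661 with olive oil, 3895 and 3529 with coconut fat, and 3506 and 3990.3 with fish oil. The highest and the lowest diet differed by 1.07-fold in their means, less than the gap between the fish oil replicates. Slc25a4, the form of heart and muscle, was at 107 and 85.7 with chow, 55.5 and 109.9 with lard, 57.6 and 114 with olive oil, 120.4 and 77.3 with coconut fat, and 84.2 and 79.4 with fish oil. The highest and the lowest diet differed by 1.21-fold in their means, and the replicates differed by more than that in all diets except fish oil, where they differed by 1.06-fold. Fish oil against the other 3 high-fat diets gave 0.05 (SE 0.10) for Slc25a5 and -0.05 (SE 0.31) for Slc25a4, and quantile normalization turned both signs. No change of these carriers was detectable at this number of arrays. In the list of ATP synthase subunits and porins, 7 genes with 8 probe sets, limma called 0 (0% to 0.424% of all). For fish oil against the other 3 high-fat diets 0 of them had an unadjusted p under 0.05 (11.8% of all). Ppif had the largest fold change of it there, 0.35 (limma adjusted p = 0.620).

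The ATP-Mg and phosphate carriers, which set the matrix pool of adenine nucleotides, were Slc25a23, Slc25a24 and Slc25a25. Probe set 1377550_at of Slc25a23, named after its values were seen, had signals of 87.8 and 109 with chow, 148 and 118.5 with lard, 168 and 126 with olive oil, 176 and 177 with coconut fat, and 86.5 and 95.9 with fish oil. The chow and fish oil arrays, up to 109, lay below the 6 arrays of the other diets, from 118.5, the same split as for Slc25a1. Fish oil against the other 3 high-fat diets gave -0.71 (SE 0.18, limma adjusted p = 0.142) and coconut fat against chow 0.83 (limma adjusted p = 0.690). The brighter probe set, 1379073_at, gave -0.34 (limma adjusted p = 0.589) and 0.40, with overlapping arrays, and the third, 1379169_at, was not tested, at 3.4 to 28.7. Slc25a25 and Slc25a24 gave -0.35 and 0.22 for fish oil against the other 3 high-fat diets. The peroxisomal carrier Slc25a17 gave 0.04, and its signals ran from 273 to 351 over all arrays.

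Carriers of cofactors, other nucleotides and glutathione were 6 genes with 9 tested probe sets. In the mean of the high-fat diets against chow, all 6 were below 0, with a median of -0.14 and 0 probe sets at an unadjusted p under 0.05. With fish oil against the other 3 high-fat diets, 5 of 6 were above 0 with a median of 0.25. There 3 probe sets were higher at an unadjusted p under 0.05 (4.91% of all), with 0 called (0.424% of all). These were Slc25a33, a pyrimidine nucleotide carrier (0.94, limma adjusted p = 0.384), Slc25a42, the coenzyme A carrier (0.65, limma adjusted p = 0.366), and Slc25a39, the glutathione carrier (0.37, limma adjusted p = 0.302). For Slc25a33 and Slc25a42, fish oil array 1 was the highest of all arrays (103.4 and 376.6). Fish oil array 2 (59.0 and 200.5) lay below lard array 1 (66.7 and 230.8), so these diets overlapped.

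Slc25a39, named after its values were seen, had signals on 1375146_at of 839 and 889 with chow, 729 and 684 with lard, 904 and 641 with olive oil, 874 and 856 with coconut fat, and 965 and 1042 with fish oil. Both fish oil arrays lay above the other 8, while its dimmer probe set, 1381765_at, gave 0.02. Slc25a36, the other pyrimidine nucleotide carrier, had signals on 1372341_at of 58.5 and 41.2 with chow, 40.8 and 34.7 with lard, 62.8 and 54.2 with olive oil, 41.4 and 52.2 with coconut fat, and 60.8 and 43.3 with fish oil. Olive oil lay above lard on it without overlap (log2 fold change 0.59, SE 0.30, limma adjusted p = 0.811), and the second probe set, 1392789_at, gave 0.08. Slc25a16 and Slc25a32 gave 0.08 and -0.33 for fish oil against the other 3 high-fat diets.

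The iron carriers Slc25a37 and Slc25a28 (mitoferrins) were at 67.1 to 103 and at 49.3 to 110.1 over the arrays. Both were below 0 against chow in the mean of the high-fat diets (-0.20 and -0.43), and 0 of the 2 probe sets had an unadjusted p under 0.05 in any of these comparisons with chow.

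Among the 5 genes whose substrate was not taken as settled, Slc25a35 had the largest fold change with fish oil. Slc25a35 signals were 23.2 and 29.9 with chow, 19.3 and 41.0 with lard, 36.6 and 28.6 with olive oil, 16.5 and 14.8 with coconut fat, and 8.4 and 6.6 with fish oil. Both fish oil arrays were below the bound of 12.8, so the fold is a bound: the signal with fish oil was at least 1.85-fold lower than with chow, 1.98-fold lower than with lard, 2.23-fold lower than with olive oil and 1.18-fold lower than with coconut fat. The limma adjusted p was 0.502 against chow and 0.221 against the other 3 high-fat diets.

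Slc25a48, on 1389678_at, had signals of 97.6 and 142 with chow, 49.6 and 58.2 with lard, 70.6 and 81.9 with olive oil, 118 and 99.7 with coconut fat, and 71.7 and 90.3 with fish oil. The lard arrays lay below all others, and chow overlapped coconut fat. The log2 fold change of lard against chow was -1.09 (SE 0.25, limma adjusted p = 0.388), that of coconut fat against the mean of lard and olive oil was 0.73 (SE 0.22, limma adjusted p = 0.595), and that of olive oil against lard was 0.48 (limma adjusted p = 0.811). The second probe set, 1390556_at, gave -0.07, 0.02 and 0.15 in these comparisons. Slc25a51l1 had signals of 105 and 81.5 with chow, 112 and 107.5 with lard, 113 and 140.2 with olive oil, 97.6 and 65.7 with coconut fat, and 89.6 and 107 with fish oil. It was lowest in the mean with coconut fat (-0.53 against the mean of lard and olive oil, limma adjusted p = 0.712). Slc25a45 and Slc25a46 gave -0.34 and -0.04 for fish oil against the other 3 high-fat diets.

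The carriers most like the uncoupling proteins were Slc25a27, Slc25a14 and Slc25a30. Slc25a30, named after its values were seen, had the widest spread between replicates of any carrier on both of its probe sets. On 1390416_at the signals were 309 and 585 with chow, 476 and 441 with lard, 396 and 1376 with olive oil, 268 and 945 with coconut fat, and 1966 and 374 with fish oil. Fish oil array 1, olive oil array 2 and coconut fat array 2 were high and their replicates were low, a ratio of 5.25 between the fish oil arrays, 3.48 between those of olive oil and 3.52 between those of coconut fat. Probe set 1381973_at showed the same arrays high, at 113 and 236 with chow, 170.0 and 175.5 with lard, 91.1 and 628 with olive oil, 89.2 and 357 with coconut fat, and 768.5 and 129 with fish oil. The pooled SD within diets was 1.14 and 1.38 on the log2 scale, at the percentiles 99.1 and 99.8 of all tested probe sets, whose median was 0.29. The diets did not differ beyond this spread, with 0.63 (SE 0.64, limma adjusted p = 0.776) for fish oil against the other 3 high-fat diets.

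**Figure D4:**
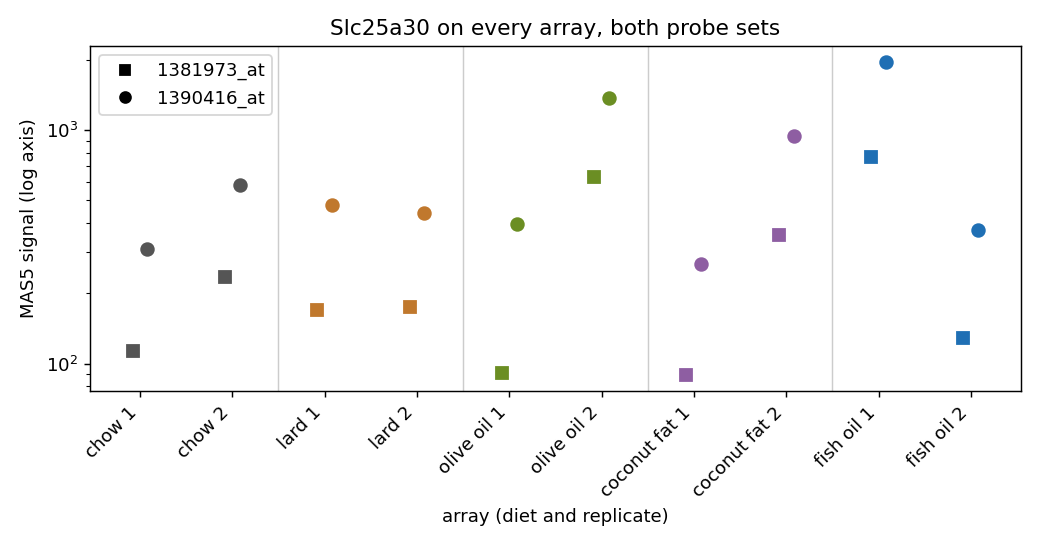
MAS5 signal of Slc25a30 (log axis) on each of the 10 arrays, grouped by diet and coloured by it, with circles for 1390416_at and squares for 1381973_at. In fish oil, olive oil and coconut fat 1 array is far above the other, as with 1966 against 374 for fish oil on 1390416_at, and both probe sets agree on which.

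Slc25a27 gave 1.02 for fish oil against the other 3 high-fat diets on 1387433_a_at (SE 0.47, limma adjusted p = 0.431), with olive oil array 2 at 4.0; its other 2 probe sets were not tested, 1371141_at dim in all diets and 1390401_at at 1.4 to 25.5. Of the 6 genes with no tested probe set, Slc25a18 and Slc25a31, the ADP and ATP carrier of testis, were dim in all diets, and Slc25a14, Slc25a34, Slc25a41 and Slc25a53 reached 35.9, 24.5, 35.9 and 16.4 on their highest arrays. A further 2 probe sets that the annotation gives as Slc25a51 listed 2 times have more than 1 entry and are no members by the rule; their signals were 175 to 355 and 136.5 to 204.

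A further list held other inner membrane carriers (8 genes with 10 probe sets, such as Ucp2 and the pyruvate carrier Mpc1 and Mpc2). Others held protein import into the inner membrane (12 genes with 17 probe sets) and regulators of mitochondrial genes (8 genes with 10 probe sets). Limma called 0 probe sets of these lists in all 8 comparisons, where 0% to 0.424% of all were called. For fish oil against the other 3 high-fat diets, 1, 4 and 0 probe sets had an unadjusted p under 0.05, all higher (11.8% of all, 4.91% higher). The largest fold changes there were 0.44 for Mpc2 (limma adjusted p = 0.205), 0.48 for Timm10b, a chaperone of carrier import (limma adjusted p = 0.306), and 0.73 for Ppargc1a, a coactivator of mitochondrial genes (limma adjusted p = 0.638). The mean signal of Ppargc1a was higher with olive oil (48.2) than with fish oil (36). Its coconut fat signals were 17.5 and 2.5, the latter below the bound of 12.8.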

How the data were processed

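The authors deposited 1 table of MAS5 signal intensity on a linear scale for 31099 probe sets and 10 arrays; per the submitters' processing notes it was made with MAS5, and its version is not given in the sources used here. After removal of 57 control probe sets, log2(signal + 3.1) was computed, where 3.1 is the 10th percentile, and the lowest 40% by mean were left out, which removed 12417. The diets were compared by limma 3.58.1 (R 4.3.3) in a linear model of all 10 arrays with 1 coefficient for each diet, an intensity trend and 5 residual degrees of freedom, with Benjamini-Hochberg adjustment over all 18625 probe sets. Correlations used 100000 permutations of all 10 arrays, without regard to diet. The fit was tested on simulated data.

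Gene symbols came from the platform annotation (1 symbol for 20826 probe sets, several for 436, none for 9780). Promoter windows are RefSeq's and matched 34 of 40 carrier genes. The members, gene lists and rules were chosen with earlier results of these data known. Values on every array are given for members that were called and for the 3 genes with the smallest p in each comparison. That p is of each gene's brightest tested probe set, so a smaller p on another probe set did not count. They are also given for Slc25a20, Slc25a1, Slc25a12, Slc25a13, Slc25a15, Slc25a3, Slc25a4 and Slc25a5. Other lists give genes that passed, or otherwise the gene with the largest fold change. Alternatives were quantile normalization, a common 75th percentile, the 25th percentile as offset, no filter on dim probe sets or one at 60%, a variance without trend, a threshold of 0.10, the replicate number as a block, all probe sets in place of the brightest, and each array left out in turn.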

Additional observations from a re-analysis of the deposited data

Results flagged for a closer look

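Probe set 1381124_at of Slc25a15, the ornithine and citrulline carrier, was singled out because fish oil differed from the other 3 high-fat diets in a direct test, with a log2 difference of 1.12 (SE 0.15, limma adjusted p = 0.0117 over all probe sets tested), and both fish oil arrays lay above the 6 arrays of those diets. The other 4 tested probe sets of the gene gave 0.32, 0.02, -0.08 and -0.16 in the same test.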

How the results depend on the processing

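The number of carrier probe sets called stayed at 0 under every alternative run for the 4 diets against chow, the high-fat mean against chow, coconut fat against lard and olive oil, and olive oil against lard. For fish oil against the other 3 high-fat diets it was 0 with no intensity trend and 0 to 2 as single arrays were left out (0 without fish oil array 1, 2 without olive oil array 1); for any difference it was 1 at an adjusted p of 0.10. Slc25a15 (1381124_at) passed under 16 of 18 alternatives, with log2 differences of 0.96 to 1.28. The median of the carriers for fish oil against chow was -0.13 over all probe sets, and -0.19 to -0.053 without single arrays. For lard it was -0.26 at a common 75th percentile, -0.12 with no dim filter, -0.12 over all probe sets and -0.20 to -0.060 without single arrays. For olive oil it was -0.15 to -0.076 without single arrays, and for coconut fat -0.10 with no dim filter and -0.13 to 0.014 without single arrays. For the high-fat mean it was -0.063 with 60% left out and -0.24 to -0.068 without single arrays. For fish oil against the other 3 it was -0.015 to 0.061, for coconut fat against lard and olive oil 0.13 at a common 75th percentile and -0.0015 to 0.13, and for olive oil against lard -0.055 to 0.065 without single arrays. For fish oil against the other 3, the sign turned for Slc25a4 (0.0051 with quantile normalization, -0.21 to 0.10 without single arrays), Slc25a5 (-0.0091, -0.044 to 0.14) and Slc25a15 1397647_at (-0.030, -0.051 to 0.10). The cause was not tested. With the replicate number as a block, 1 probe set was called for fish oil against the other 3 and 0 elsewhere. Every diet holds both replicate numbers, so this block could not move the fold changes or the medians (-0.05 for fish oil against chow). Over all tested probe sets, deviations of same-numbered arrays from their diet means correlated at -0.03 to 0.08. These values show no large shared shift, but cannot decide whether the numbers pair samples, which the labels do not state. Scaling moved the median of all probe sets by under 0.1. The number of arrays and dim signals limit what could be seen.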

Other observations

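The high and low arrays of Slc25a30 were also high and low for a few genes of other kinds, picked after their values were seen as the 4 whose log2 signals correlated most closely with those of Slc25a30 over the 10 arrays. Onecut1, a liver transcription factor, had signals of 36.9 and 85.3 with chow, 74.9 and 62.2 with lard, 39.7 and 161 with olive oil, 38.6 and 152 with coconut fat, and 245 and 91.3 with fish oil. Rtp3 had signals of 201 and 332 with chow, 260.5 and 239.9 with lard, 270.1 and 410.3 with olive oil, 197 and 297 with coconut fat, and 407 and 276 with fish oil. Fgf21, a hormone that the liver releases on fasting, had signals of 16.3 and 45.3 with chow, 102.5 and 62.4 with lard, 86.0 and 196 with olive oil, 28.8 and 119.7 with coconut fat, and 373 and 32.3 with fish oil. Atf4, a transcription factor of the stress response to amino acid lack, had signals of 898 and 1023 with chow, 1069.6 and 960.1 with lard, 1084 and 1269 with olive oil, 769 and 1128 with coconut fat, and 1288 and 825 with fish oil. As for Slc25a30, fish oil array 1, olive oil array 2 and coconut fat array 2 were each above their replicate for all 4 genes. No test was run on this choice.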
